A study of Mus musculus with 8 samples.

Results

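The suppressor of cytokine signalling (SOCS) family comprises 8 genes in the mouse, Socs1 to Socs7 and Cish, and these were taken by name from an annotation of 37310 genes, of which 22380 are protein-coding. The data came from D1 cells, a long-term dendritic cell line grown from the spleen of C57BL/6 mice, in which chromatin immunoprecipitation and sequencing (ChIP-seq) was run for 2 targets. NFATc2, a transcription factor that moves to the nucleus when calcineurin removes its phosphates, was precipitated through a C-terminal V5 tag 30 min after 10 µg/ml curdlan, a fungal beta-glucan that engages the receptor dectin-1. H3K4me3, the trimethyl mark of histone H3 found around active transcription start sites (TSSs), was precipitated from non-treated cells (NT), from cells given the same dose of curdlan for 2 h, and from cells given curdlan for 2 h together with FK506, a drug that blocks calcineurin. Per the study's methods, ChIP was run in cells with stable expression of the tagged NFATc2, so the precipitated factor is an added copy in 1 cell line and not the endogenous protein. The labels of the H3K4me3 libraries name D1 cells and no tag, so whether those cells carried the added copy is not clear from them. No library of FK506 alone is among the samples, and NFATc2 was mapped only after curdlan.

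SOCS proteins are feedback inhibitors of cytokine receptors that signal through Janus kinases (JAKs) and STAT transcription factors. Each has an SH2 domain, which binds phosphotyrosine, and a C-terminal SOCS box, which binds Elongins and Cullin-5 to form a ubiquitin ligase. Socs1 and Socs3 also carry a kinase inhibitory region that blocks JAKs directly, and in dendritic cells they restrain responses to interferons and to cytokines such as interleukin-6. Cish and Socs2 are induced by STAT5 and act on receptors such as those for growth hormone and interleukin-2, while Socs4 to Socs7 act mainly on growth factor and insulin receptors and are less well understood.

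For every condition there was 1 ChIP and 1 input library, with 14377535 tags for NFATc2 and 16662316, 21289349 and 19468498 for H3K4me3 in NT, curdlan and curdlan with FK506. The peak caller listed 9438 NFATc2 peaks, which held 5.58% of the NFATc2 tags, and 15799, 14872 and 14878 H3K4me3 peaks in the same order, which held 57.9%, 52.8% and 51.3% of the tags. With 1 library per condition there is no spread between replicates and no test between conditions, and the 95% exact (Clopper-Pearson) intervals given here cover counting error only. Of 10 genes chosen for dendritic cell identity, not all of them specific to these cells, 9 had an H3K4me3 peak in every list under the symbol used. Among these 9 was Itgax at 153.2, 177.2 and 190.2 RPM (tags per 1000000 ChIP tags). The remaining one, Spi1, is annotated here as Sfpi1, and had 191.3, 221.2 and 198.9 RPM within 1 kb of a TSS. Of 10 markers of T cells, B cells, epithelium, fibroblasts and erythroid cells, 9 had no peak, and the peak that overlapped the B cell gene Cd79a lay within 1 kb of the TSS of its neighbour Arhgef1 and of no TSS of Cd79a. No macrophage or monocyte marker was included, so these values do not set dendritic cells apart from such cells.

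Every SOCS family gene had at least 1 NFATc2 summit within 100 kb of an annotated TSS, against 55.3% of protein-coding genes. With a peak caller p-value of 1e-10 or less, 7 of 8 had one, all but Socs1. The 55.3% is over all peaks, and the share of protein-coding genes at the stricter p-value is not given here. Over all peaks, the count within 30 kb was 5 of 8 genes, against 30.2%, and within 1 kb it was 4 of 8, against 5.29%. The 4 genes with a summit within 1 kb were Socs1, Socs3, Socs5 and Cish, and none of these TSS sites reached a p-value of 1e-10. The list held 34 different summits in these windows, and for 22 of them the SOCS gene was the nearest protein-coding gene. Cish had 7 summits, Socs3, Socs5 and Socs7 had 6 each, Socs1 and Socs6 had 3 each, Socs4 had 2 and Socs2 had 1. The median over protein-coding genes was 1 summit, and 3.86% had 6 or more, as did 4 of the 8 SOCS genes. Socs6 is annotated over 262.3 kb with 7 TSSs, so its window was wider than that of a compact gene such as Socs1, which has 1 TSS.

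**Figure D1:**
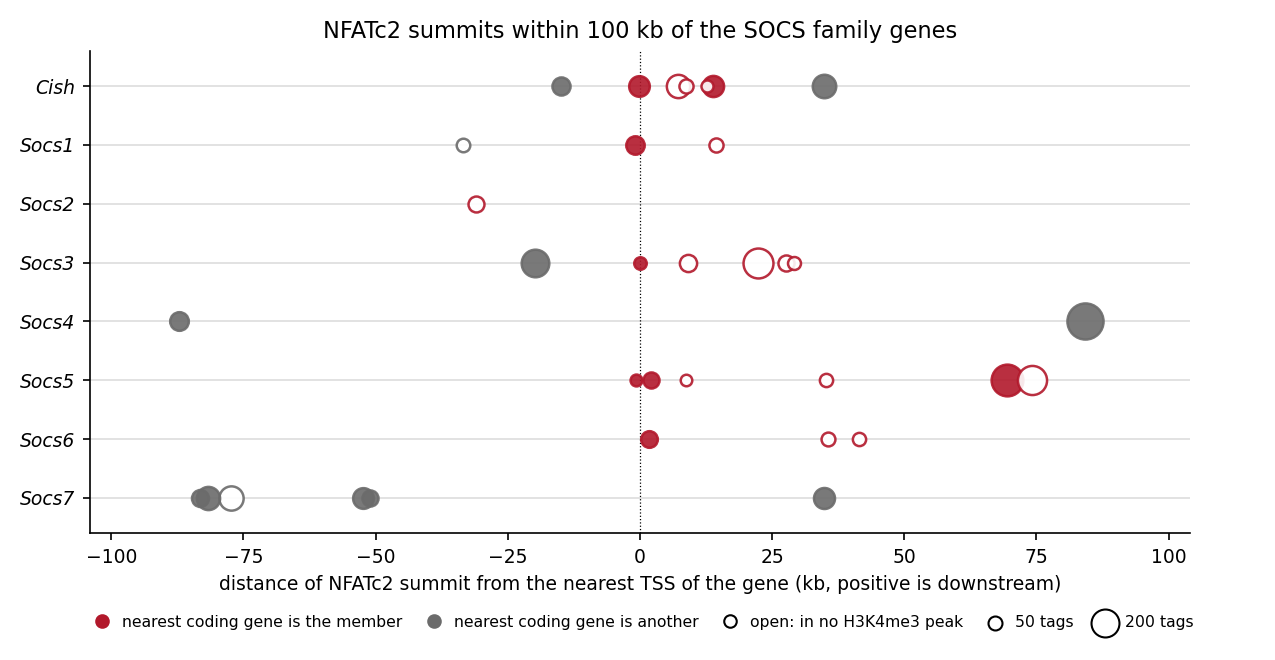
Each circle is an NFATc2 summit at its distance in kb from the nearest annotated TSS of the SOCS gene named on the left, with positive values downstream and circle area in proportion to the number of tags. Red circles have the SOCS gene as the nearest protein-coding gene, grey ones another gene, and open circles lie in no H3K4me3 peak of any list. Socs1, Socs3, Socs5 and Cish have a summit within 1 kb of a TSS, whereas the summits around Socs4 and Socs7 are all grey.

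The sequences within 100 bases of 8 summits follow (mm9, plus strand), chosen because they are the TSS-proximal sites, the strongest sites or sites referred to with the H3K4me3 results. Capitals mark matches on either strand to GGAAAA, the core bound by NFAT proteins, to TGANTCA, the site of AP-1, a frequent partner of NFAT, and to TTCNNNGAA, the site of STAT dimers. A GGAAAA match can share bases with a STAT match.
Socs3, 24 bp downstream, chr11:117831237-117831437: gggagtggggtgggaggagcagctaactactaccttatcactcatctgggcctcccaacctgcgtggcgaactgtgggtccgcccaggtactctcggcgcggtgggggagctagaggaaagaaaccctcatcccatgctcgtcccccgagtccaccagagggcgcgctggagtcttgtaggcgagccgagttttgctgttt
Socs3, 9117 bp downstream, chr11:117821283-117821483: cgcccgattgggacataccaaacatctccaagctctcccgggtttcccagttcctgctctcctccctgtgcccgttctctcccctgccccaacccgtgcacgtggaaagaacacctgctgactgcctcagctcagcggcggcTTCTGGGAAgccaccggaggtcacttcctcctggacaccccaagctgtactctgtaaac
Socs3, 22375 bp downstream, chr11:117808025-117808225: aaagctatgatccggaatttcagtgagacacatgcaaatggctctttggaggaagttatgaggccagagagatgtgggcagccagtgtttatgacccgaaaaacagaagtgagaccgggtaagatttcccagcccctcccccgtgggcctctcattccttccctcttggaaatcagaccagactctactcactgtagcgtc
Cish, 209 bp upstream, chr9:107198048-107198248: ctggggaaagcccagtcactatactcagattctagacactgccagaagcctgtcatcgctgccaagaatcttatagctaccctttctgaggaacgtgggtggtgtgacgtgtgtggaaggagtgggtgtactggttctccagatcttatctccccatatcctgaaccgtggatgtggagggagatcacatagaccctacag
Cish, 7164 bp downstream, chr9:107208550-107208750: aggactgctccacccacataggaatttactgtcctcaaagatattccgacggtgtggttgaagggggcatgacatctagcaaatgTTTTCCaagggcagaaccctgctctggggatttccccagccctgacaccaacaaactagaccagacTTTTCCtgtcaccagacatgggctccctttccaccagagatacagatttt
Socs5, 750 bp upstream, chr17:87506169-87506369: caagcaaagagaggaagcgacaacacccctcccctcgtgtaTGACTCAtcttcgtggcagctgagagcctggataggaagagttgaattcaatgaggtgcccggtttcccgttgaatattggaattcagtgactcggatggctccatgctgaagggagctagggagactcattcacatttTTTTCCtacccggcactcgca
Socs5, 69358 bp downstream, chr17:87576289-87576489: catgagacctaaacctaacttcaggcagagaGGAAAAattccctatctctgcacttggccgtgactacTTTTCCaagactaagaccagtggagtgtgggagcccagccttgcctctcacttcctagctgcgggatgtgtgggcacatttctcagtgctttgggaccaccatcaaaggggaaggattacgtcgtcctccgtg
Socs1, 900 bp upstream, chr16:10786429-10786629: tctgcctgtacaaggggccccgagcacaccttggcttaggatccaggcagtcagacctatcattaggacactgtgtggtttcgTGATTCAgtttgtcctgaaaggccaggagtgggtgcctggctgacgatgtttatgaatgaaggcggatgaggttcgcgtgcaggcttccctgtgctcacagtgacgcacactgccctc

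GGAAAA lay within 100 bases of 12 of the 34 summits (35.3%), against 45.6% of all 9438 NFATc2 summits. TGANTCA lay near 8 (23.5%, against 21.8%) and TTCNNNGAA near 5 (14.7%, against 12.0%). The summits around the SOCS genes thus held the 3 motifs at shares near or below those of all summits, and a match describes the letters only. The TSS sites of Socs3 and Cish held none of the 3 motifs in this window, and neither did the strongest Socs3 site.

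At Socs3, the nearest summit lay 24 bp downstream of a TSS, in an exon of a noncoding Socs3 transcript (chr11:117830874-117831928). It was a weak peak, with 40 tags, 9.94-fold enrichment over input and a peak caller p-value of 1.7e-06, and 24.5% of all NFATc2 peaks had as few tags or fewer. The strongest Socs3 peak was intergenic (chr11:117807165-117808876), 22375 bp downstream of the nearest TSS and 19268 bp past the end of the gene. It had 229 tags, 21.35-fold enrichment and a p-value of 1.4e-41, which placed it at the 95.7th percentile of tags. Another 3 peaks lay downstream at 9117, 27556 and 29237 bp with 76, 66 and 43 tags, so 4 of the 6 summits were downstream of this 3.97 kb gene. The remaining one lay 19911 bp upstream with 195 tags, in an intron of Pgs1, an enzyme of phosphatidylglycerol synthesis, whose own TSS was nearer at 3073 bp.

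Socs1, the other gene with a kinase inhibitory region, had 1 summit near its TSS, 900 bp upstream (chr16:10785580-10787067), with 87 tags, 12.03-fold enrichment and a p-value of 1.2e-09. The other two peaks were smaller, with 51 tags at 14384 bp downstream and 47 tags at 33468 bp upstream, the last of them nearer to Gm11172. The Socs1 sites therefore did not reach the tag counts of the strongest sites of Socs3, Socs5 and Cish.

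Cish, which codes for the inhibitor most similar to Socs2, had a summit 209 bp upstream of its first TSS (chr9:107197658-107199463) with 109 tags and a p-value of 1.9e-10. Its most enriched site lay 3535 bp past the end of the gene (chr9:107207999-107209097), with 139 tags, 46.82-fold enrichment and a p-value of 1.4e-65. That enrichment was at the 99.3rd percentile of all NFATc2 peaks, and the window around the summit held 2 copies of GGAAAA on the minus strand. Another 3 peaks followed downstream with 51, 37 and 115 tags, and the 2 outer ones were nearest to Mapkapk3 and Hemk1. Socs2 had its only summit 31039 bp upstream (chr10:94910422-94911492), with 65 tags and a p-value of 8.8e-11, and the nearest TSS of any kind belonged to 5730420D15Rik.

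Socs5, an inhibitor of epidermal growth factor receptor signalling, had a weak site 750 bp upstream (chr17:87505761-87506530, 36 tags, p-value 2.3e-06) and a site near the median of all peaks (63 tags) in its intron 2067 bp downstream (66 tags, p-value 9.1e-13), both with an AP-1 motif. Its large peaks were far away. One lay 69358 bp downstream (chr17:87575180-87577169) with 258 tags, and another 74105 bp downstream (chr17:87580339-87582406) with 217 tags, at the 96.9th and 94.9th percentiles of tags. Their enrichment was 13.17-fold and 27.44-fold, at the 48.5th and 92.1st percentiles. Socs5 was the nearest protein-coding gene to both, although the unnamed transcript gene AC129309.1 was nearer to each. Socs6, an adaptor-like member that binds receptor tyrosine kinases, had 3 intronic summits with 45 to 71 tags, the nearest 1644 bp from a TSS.

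Socs4 and Socs7 had no summit for which they were the nearest protein-coding gene. The Socs4 window held the most heavily tagged site of all 34, with 334 tags 84148 bp downstream, but Lgals3, which codes for galectin-3, was the nearest coding gene, and the other site lay 286 bp from the TSS of Gch1, the first enzyme of tetrahydrobiopterin synthesis. The 6 summits around Socs7 lay 34759 to 83170 bp away and were nearest to Npepps, Mrpl45 or Arhgap23.

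In the 300 bases before 1 coding TSS per gene, TTCNNNGAA was found before 2 of the 8 genes, Socs2 and Socs3, against 8.03% of protein-coding genes, GGAAAA before 1, Socs5, against 24.7%, and TGANTCA before 0, against 6.9%. In a wider search added after these values were seen, matches to the STAT site TTCNNNGAA were found before 3 of the 8 genes, Socs2, Socs3 and Cish, when the 300 bases before every coding TSS were searched, against 12.0% of protein-coding genes. Cish had 4 copies and Socs2 had 2, against 279 of 22372 genes with 2 or more and 8 with 4 or more. Copies were pooled over the coding TSSs of a gene, so genes with more of them were searched over more sequence. The counts are not adjusted for this. Cish is annotated with 6 TSSs, and had 0 copies in the search before 1 coding TSS. The copies are shown in windows of 30 bases on the strand of the gene (mm9), because they are the known kind of site through which STATs induce SOCS genes, and capitals mark the motif. Counted to the nearest coding TSS, the copies start at -51, -40, -116 and -99 in Cish, at -66 and -55 in Socs2 and at -61 in Socs3, and the windows at -51 in Cish and at -55 in Socs2 hold a pair each.
Cish, chr9:107198980-107199009, plus strand: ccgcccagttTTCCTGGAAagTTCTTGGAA
Cish, chr9:107199085-107199114, plus strand: aagcccgcggTTCTAGGAAgatgaggcttc
Cish, chr9:107199102-107199131, plus strand: aagatgaggcTTCCGGGAAgggctgggacg
Socs2, chr10:94879528-94879557, minus strand: TTCCTGGAAagTTCCTGGAAagcggcctcc
Socs3, chr11:117830543-117830572, minus strand: cggccgggcagTTCCAGGAAtcggggggcg

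All 8 genes had H3K4me3 in all 3 lists, at levels from 35.3 RPM in Socs6 to 294.5 in Cish. Of the 37310 annotated genes, 13292 had a peak in the NT list, 13220 in the curdlan list and 13177 in the FK506 list. Other complete sets were 11 of 11 further inhibitors of JAK and STAT signalling and 8 of 8 parts of the SOCS box ligase. Peaks were found per list for 9 of 11 JAK and STAT genes, 16 to 18 of 24 cytokine receptor genes and 4 to 5 of 16 cytokine genes. A level is the sum of tags in all peaks that overlap the gene or lie within 1 kb of a TSS, given in RPM, and the median over all genes with a peak was 46.6 in the NT list, 43.3 in the curdlan list and 42.2 in the list with FK506. Cish stood at the 99.4th percentile of genes with a peak in NT, and Socs6 at the 42.0th. Per kb of peak in NT, the order of levels was Cish with 29.1 RPM per kb, Socs1 with 24.2, Socs4 with 21.6, Socs5 with 20.5, Socs2 with 18.0, Socs3 with 17.2, and Socs6 and Socs7 with 13.5 each. The counting intervals overlapped between Socs4 and Socs5, between Socs2 and Socs3 and between Socs6 and Socs7, and not between the other neighbours in this order. Some of these peaks are shared with a neighbour, since the Socs4 peak also covered the TSS of Wdhd1, the Cish peak those of Gm17040 and Gm17041, and the Socs2 peak that of 5730420D15Rik.

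**Figure D2:**
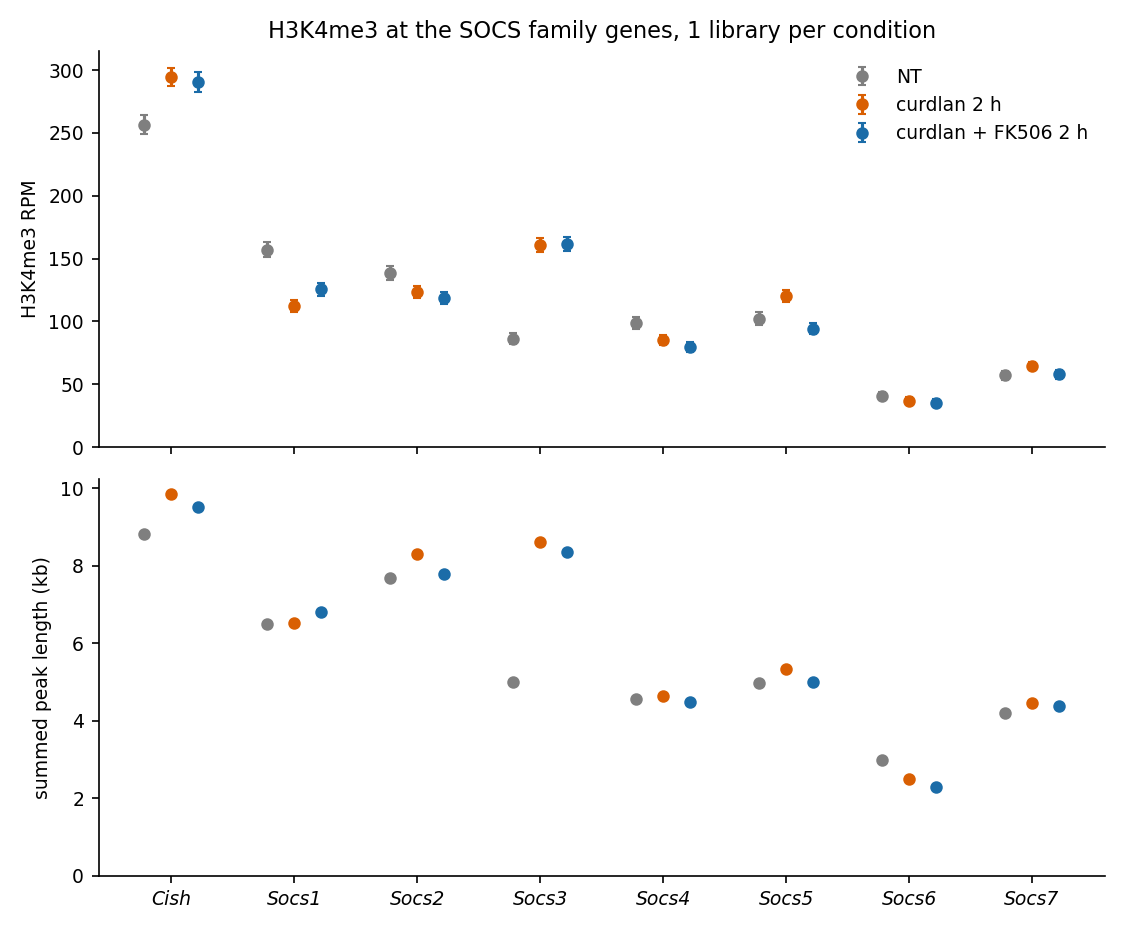
The upper panel gives H3K4me3 RPM and the lower panel the summed peak length in kb for each SOCS gene, in NT (grey), curdlan (orange) and curdlan with FK506 (blue), with 1 library per condition and bars for the 95% exact interval of the counts. Socs3 goes from 86.1 to 160.5 and 161.6 RPM and from 5.00 to 8.62 and 8.35 kb, the largest change among the 8 genes on either scale.

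The comparison of curdlan with NT asks how the mark changed 2 h after dectin-1 was engaged. Ratios of RPM were divided by the median ratio over the 13019 genes with a peak in both lists (0.913), and a gene was called when this relative ratio was at least 1.5-fold in either direction. Socs3 was the 1 SOCS gene called higher, against a background of 3.77% of genes, and 0 were called lower, against 1.87%.

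Socs3 had 86.1 RPM in NT (81.7 to 90.6) and 160.5 with curdlan (155.2 to 166.0). Its relative ratio was 2.04 (1.92 to 2.18), at the 98.7th percentile, and 165 genes (1.27%) had a ratio as high or higher. Much of this came with a longer peak. The Socs3 peak was 5.00 kb in NT and 8.62 kb with curdlan, a 1.72-fold increase in length at the 98.1st percentile, whereas RPM per kb went from 17.2 to 18.6, a relative ratio of 1.23. The peak's downstream edge moved outward by 3113 bp and its upstream edge by 505 bp, so that it reached 3641 bp past the end of the gene with curdlan and 528 bp in NT. The gap between this edge and the NFATc2 summit at 9117 bp was 5482 bp in NT and 2369 bp with curdlan. Socs3 was not called by RPM per kb, nor by the caller's fold enrichment over input, where its relative log2 ratio was 0.58.

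**Figure D3:**
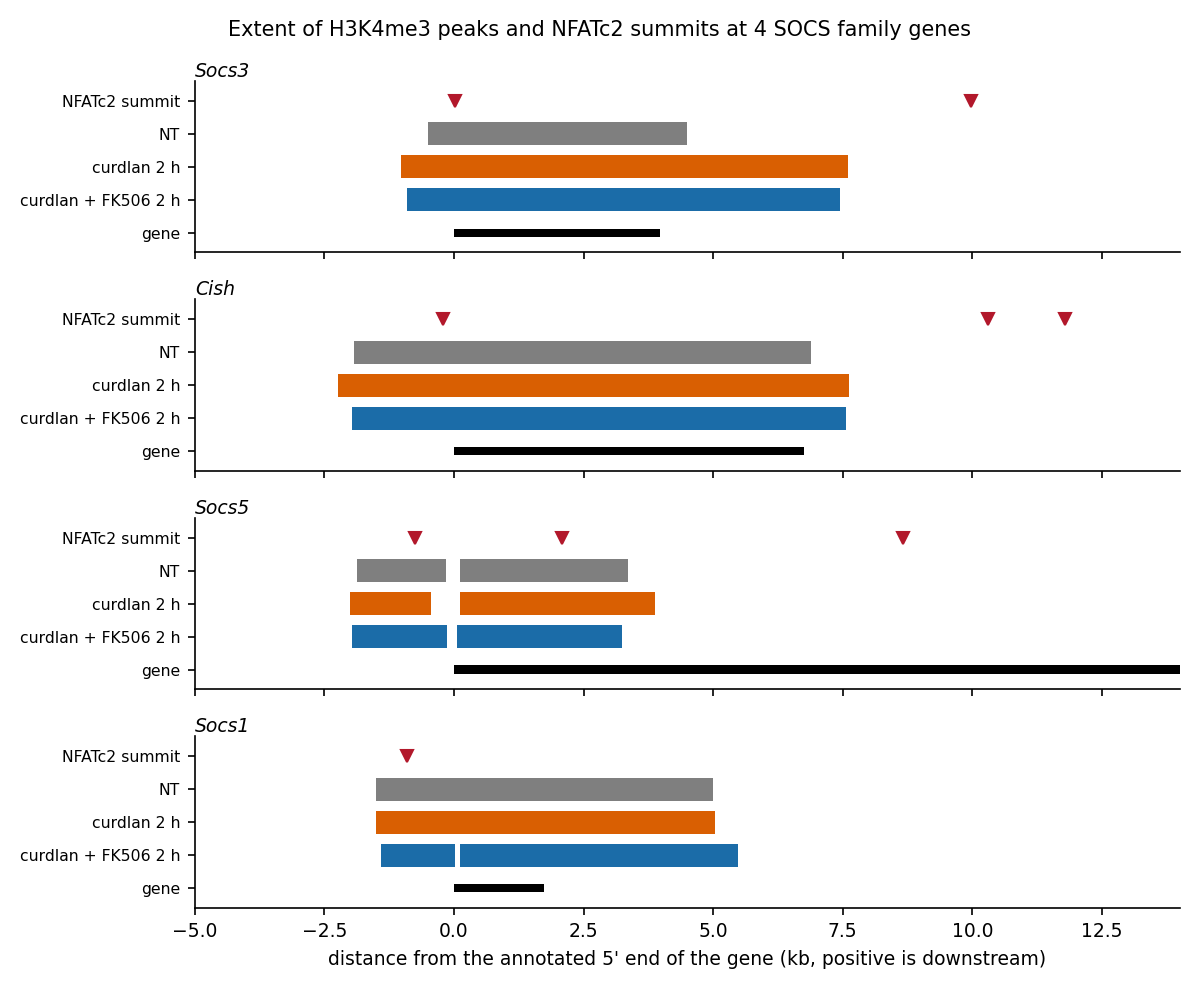
Bars give the extent of H3K4me3 peaks in NT, curdlan and curdlan with FK506 around Socs3, Cish, Socs5 and Socs1, in kb from the annotated 5′ end of the gene, with NFATc2 summits as red triangles and the gene as a black bar. The Socs3 peak extends to 3641 bp past the gene's end with curdlan and 3479 bp with FK506 added, against 528 bp in NT, while the Socs1 peak keeps its NT extent with curdlan and is listed as 2 peaks with FK506.

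Socs5, Cish and Socs7 were above the median ratio without reaching the threshold. Socs5 had 102.1 RPM in NT and 120.0 with curdlan, a relative ratio of 1.29 (1.21 to 1.37). Cish had 256.6 and 294.5, a ratio of 1.26 (1.21 to 1.31), and Socs7 had 57.0 and 64.5, a ratio of 1.24 (1.14 to 1.35). The intervals of these 3 genes lay above 1. Their places were the 91.4th, 90.0th and 89.0th percentiles of all genes. The Cish peak was 8.82 kb long in NT and 9.86 kb with curdlan.

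Socs1 was the 1 SOCS gene whose interval lay below 1. It had 156.9 RPM in NT (150.9 to 163.0) and 112.1 with curdlan (107.7 to 116.7), a relative ratio of 0.783 (0.741 to 0.828) at the 6.99th percentile, with peak lengths of 6.49 and 6.53 kb. By RPM, Socs1 and Socs3, the pair with a kinase inhibitory region, lay at opposite ends of the family in this comparison. Socs1 was also lowest by RPM per kb (relative ratio 0.805) and by fold enrichment (relative log2 ratio -0.55). Socs3 was not highest by either measure. Its relative ratio per kb was 1.23, beside 1.24 for Socs5 and for Socs6, and by fold enrichment it had 0.58, beside 0.76 for Socs5 and 0.66 for Socs2. Socs2 had 138.3 and 123.2 RPM with a relative ratio of 0.976 (0.923 to 1.03), and Socs4 had 98.8 and 85.2 with a ratio of 0.944 (0.883 to 1.01). Socs6 had 40.4 and 36.9 with a ratio of 1.00 (0.903 to 1.11), and its NT level included a small second peak of 36 tags that neither other list held. The intervals of the relative ratio of Socs2, Socs4 and Socs6 included 1. Without division by the median ratio, the RPM intervals of Socs2 (132.7 to 144.1 and 118.5 to 128.0) and Socs4 (94.1 to 103.7 and 81.3 to 89.2) did not overlap, both lower with curdlan. By fold enrichment, the relative log2 ratio was 0.66 for Socs2, 0.54 for Socs4 and -0.04 for Cish, so the direction of these 3 genes depended on the measure.

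**Figure D4:**
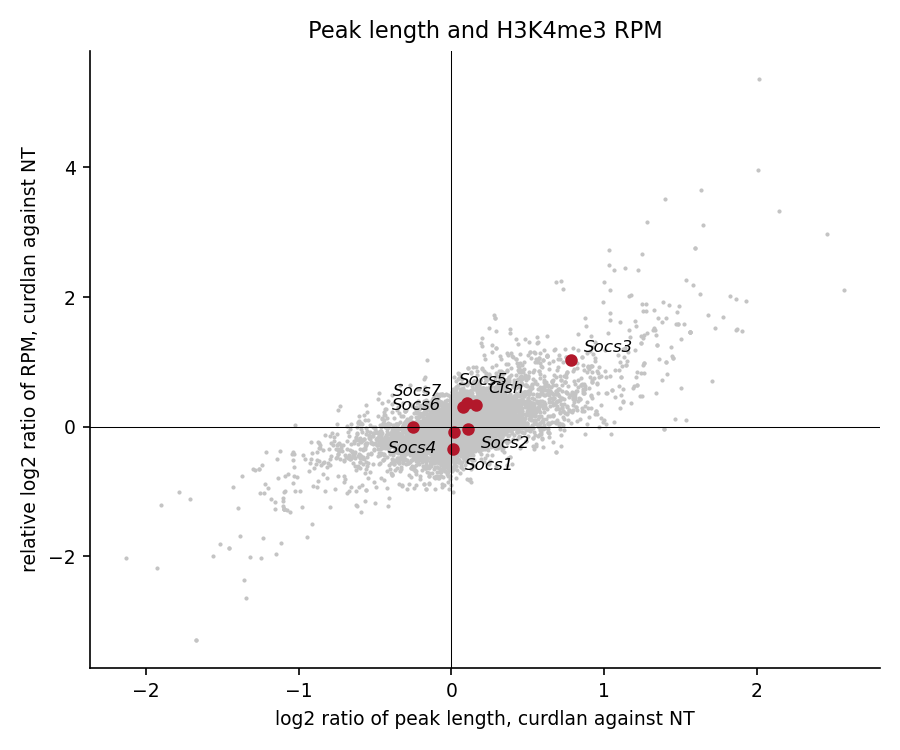
Each grey point is 1 of the 13019 genes with H3K4me3 peaks in NT and in curdlan, placed by the log2 ratio of peak length (horizontal) and by the relative log2 ratio of RPM (vertical), with the 8 SOCS genes in red. Socs3, at 1.03 on the vertical axis and with a length ratio of 1.72-fold, lies apart from the other SOCS genes, which have relative log2 ratios from -0.35 to 0.36.

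The comparison of curdlan with FK506 against curdlan alone asks how the mark differed when calcineurin was blocked. Of the 8 genes, 0 were called higher, against 0.592% of genes, and 0 lower, against 1.45%. Socs3 had 160.5 RPM with curdlan and 161.6 with FK506 added (156.0 to 167.4), a relative ratio of 1.04 (0.988 to 1.09), and its peak was 8.62 and 8.35 kb long. The Socs3 downstream edge stayed within 162 bp of its position with curdlan alone.

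Socs5 had the relative ratio of RPM farthest from 1, while by fold enrichment Socs6 was farther from the median (0.71 on the relative log2 scale) than Socs5 (-0.67). Socs5 had 120.0 RPM with curdlan and 94.1 with FK506 added, a relative ratio of 0.808 (0.76 to 0.858) at the 4.79th percentile, beside 102.1 in NT. Within Socs5, the upstream peak had 29.0, 26.2 and 25.6 RPM in NT, curdlan and curdlan with FK506, and the downstream peak, which covers the start of the gene's intron and the NFATc2 summit at 2067 bp, had 73.1, 93.8 and 68.5. By RPM, the difference between conditions thus lay in the downstream peak. By fold enrichment, not divided by the median, both peaks differed. The values in the same order were 38.89, 95.11 and 55.05 for the upstream peak and 46.29, 129.58 and 67.51 for the downstream one. Socs1 had 112.1 and 125.4 RPM, a relative ratio of 1.15 (1.09 to 1.22) at the 95.1st percentile, and with FK506 its domain was listed as 2 peaks of 5374 and 1443 bp. By fold enrichment the direction turned for Socs1, at -0.17 on the relative log2 scale, and for Socs3, at -0.31. Socs7 had 64.5 and 57.8, a ratio of 0.923 (0.852 to 0.999), and Cish had 294.5 and 290.5, a ratio of 1.02 (0.98 to 1.05). Socs2, Socs4 and Socs6 had ratios of 0.993, 0.963 and 0.985, with intervals that included 1.

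Against NT, cells given curdlan with FK506 gave 1 SOCS gene called higher, Socs3, with a background of 3.02% of genes, and 0 lower, with 1.95%. This comparison shares the NT library with the first and the FK506 library with the second, so the values are set side by side only. Socs3 had a relative ratio of 2.13 (2.00 to 2.26), Cish 1.28 (1.23 to 1.33) and Socs7 1.15, the last with an interval above 1 as well. Socs5 had 1.04 (0.976 to 1.11), and Socs1 and Socs4 were below 1 with 0.905 (0.856 to 0.956) and 0.911 (0.85 to 0.977). The values of Socs2 (0.971) and Socs6 (0.989) had intervals that included 1. By fold enrichment, the relative log2 ratio was 1.01 for Socs4, 0.81 for Socs2 and 0.75 for Socs6, so the direction of these genes depended on the measure. Socs1 stayed below the median at -0.71 and Socs3 above it at 0.28.

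**Figure D5:**
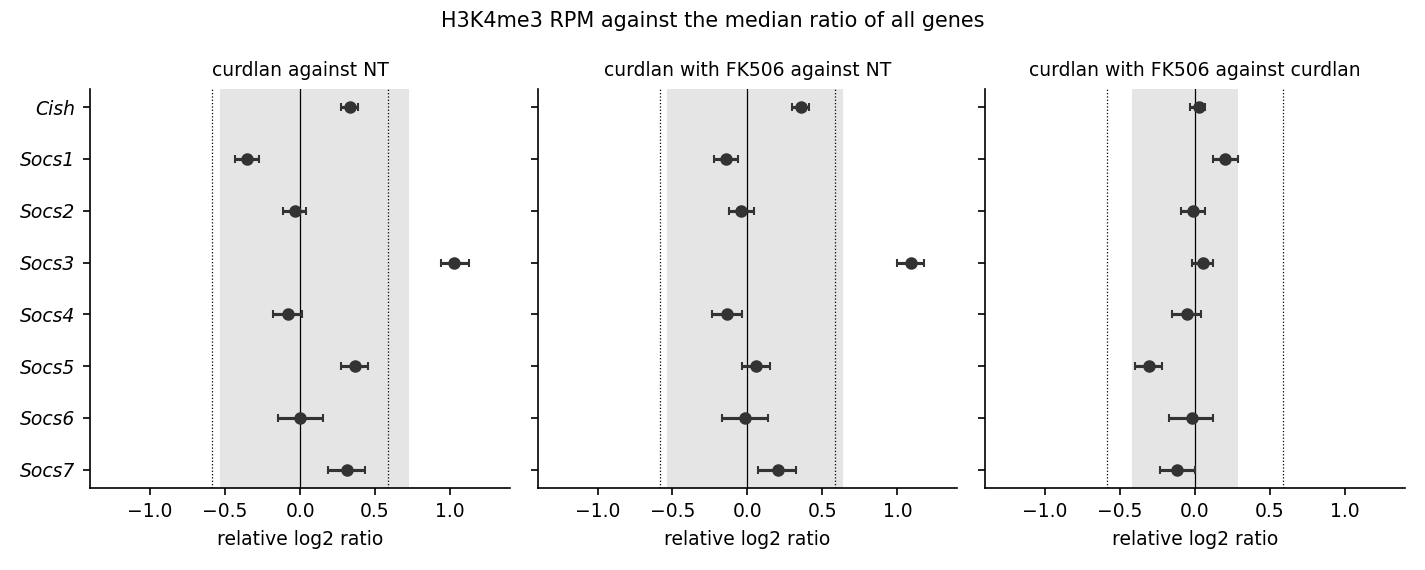
Points give the log2 ratio of H3K4me3 RPM, relative to the median ratio of all genes, for each SOCS gene in the 3 comparisons, with bars for the 95% exact interval of the counts. Grey bands hold the central 95% of all genes and dotted lines mark 1.5-fold. Socs3 lies outside the band in both comparisons with NT, at 1.03 and 1.09, and inside it with FK506 against curdlan, at 0.05, where Socs5 is lowest at -0.31.

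Of the 34 NFATc2 summits, 16 lay in an H3K4me3 peak in NT and 17 in each of the other 2 lists. Over all NFATc2 summits the shares were 23.8%, 23.3% and 22.5%. These shares are not like for like, because the 34 were picked for lying near TSSs of genes that all carry the mark. The covered summits include sites nearest to other coding genes, such as Gch1, Npepps, Mrpl45 and Arhgap23. In all 3 lists the same 16 summits were covered, and 16 were covered in none. The strong distal Socs3 site at 22375 bp and the most enriched Cish site were among those without the mark. Of the 22 summits nearest to a SOCS gene, 8 lay in a peak of at least 1 list and 14 in none. The mark differed between lists at 2 sites. The Socs5 site at 69358 bp lay in a peak with curdlan alone (181 tags, 8.5 RPM, p-value 2.9e-09), and the Cish site at 13905 bp lay in a weak peak with FK506 alone (136 tags, p-value 5.0e-06), for which the caller's false discovery rate was 15.8%. At the Pgs1 site 19911 bp upstream of Socs3, the H3K4me3 peak had 81.3, 109.7 and 121.9 RPM in NT, curdlan and curdlan with FK506.

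Genes of the same pathway were read in the same way. Of 11 JAK and STAT genes, 9 had peaks in both lists, and with curdlan against NT 1 was called higher and 0 lower, beside 3.77% and 1.87% of all genes, the background for each list here. The 1 was Stat5a, with 36.8 RPM before treatment, 123.3 after curdlan and 102.7 after curdlan with FK506. Its relative ratio was 3.67 for curdlan against NT. None of 11 other inhibitors of JAK and STAT signalling and none of 8 parts of the SOCS box ligase was called in either direction in any of the 3 comparisons. Of 24 cytokine receptor genes, 16 had peaks in NT and curdlan and 1 was called higher, Il2rg, the common gamma chain, at 37.9 and 59.1 RPM. Of 16 cytokine genes that act through JAKs and STATs, only 4 had peaks in both lists, and 3 of these were called higher. Ebi3, a subunit of interleukin-27 and interleukin-35, went from 25.2 to 88.3 RPM and was at 62.0 with FK506, and Clcf1, a ligand of the ciliary neurotrophic factor receptor, went from 29.5 to 62.2 and was at 46.1. The third, Lif, had 30.4, 50.7 and 54.9. The same 5 pathway genes outside the SOCS family were called higher with curdlan and FK506 against NT, with 0 lower, beside 3.02% and 1.95% of all genes. With FK506 and curdlan against curdlan alone, the cytokine gene Il23a, at 9.71 and 19.4 RPM, was the 1 gene of these lists called lower, 0 were called higher, beside 1.45% and 0.592% of all genes, and Il23a had no peak in NT. The median relative log2 ratio with curdlan was 0.16 over the SOCS genes, 0.22 over the JAK and STAT genes, 0.02 over the other inhibitors, 0.11 over the ligase parts, -0.10 over the receptors and 1.04 over the 4 cytokine genes, beside 0 over all genes by construction.

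The 3 protein-coding genes whose pattern was most like that of Socs3 were Tulp2, Slc25a33 and Plekha4, at Euclidean distances of 0.02, 0.0268 and 0.0316 over the 2 relative log2 ratios of curdlan against NT and of FK506 with curdlan against curdlan. Among 11197 genes, 12 lay within 0.1. Tulp2 had 79.6, 148.6 and 147.6 RPM in NT, curdlan and curdlan with FK506, beside 86.1, 160.5 and 161.6 for Socs3. Its peak was 1.48-fold longer with curdlan, less than the 1.72-fold of Socs3. A level can include a peak shared with a neighbouring gene, and shared peaks are not listed here for these 3 genes. The likeness is over 3 libraries, so it describes these libraries only.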

How the data were processed

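The authors mapped single-end reads to mm9 with Bowtie, removed duplicate reads and called peaks against the matched input with MACS 1.4.2 (version per the file headers) at a p-value cutoff of 1e-05. The deposited lists give tag counts, fold enrichment (a ratio over local input), a score of −10 log10 of the p-value and a false discovery rate in percent. Peaks were joined here to GENCODE M1 (Ensembl release 65, NCBI mouse build 37, the same assembly). Each gene's tags were summed over peaks that overlap it or lie within 1 kb of a TSS, expressed as RPM (tags per 1000000 ChIP tags) (a peak between genes can count for both), and compared as ratios with exact intervals (Python 3.11.15, pandas 2.3.3, scipy 1.17.1). The scripts were tested on simulated data. The members, the pathway lists and the markers were chosen with earlier results of these data known. The genes named beside the SOCS family are the nearest genes, sharers of a peak, up to 2 extreme genes past 1.5-fold per list and direction, and the 3 most like Socs3. Cd79a, Arhgef1, Sfpi1, Itgax, Lif, Il23a and the search before every coding TSS were added after values were seen. Sequences were read from the mm9 genome.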

Additional observations from a re-analysis of the deposited data

How the results depend on the processing

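The count of 34 NFATc2 summits fell to 19 when a p-value of 1e-10 or less was required, and the 8 SOCS genes with a summit within 100 kb became 7. The share of all protein-coding genes at that cutoff is not given here. Over all peaks, 5 genes had a summit within 30 kb and 4 within 1 kb. At the stricter p-value the nearest summit lay 116342 bp from Socs1, -19911 bp from Socs3, 2067 bp from Socs5 and 7164 bp from Cish. Socs3 was called higher against NT in both comparisons without centring, with peaks within 1 kb of a TSS only, at a false discovery rate of 5% or less and at 2-fold. In that order, 2.58%, 3.69%, 3.84% and 1.38% of all genes were called higher for curdlan against NT. For FK506 with curdlan against NT the shares were 1.68%, 2.88%, 2.99% and 0.993%. Tags per peak kb called 0 of the 8 SOCS genes higher in either comparison with NT, beside 1.74% and 1.62% of all genes. Fold enrichment, which takes the highest point of the peaks over input, called 2 higher for curdlan against NT (Socs2 and Socs5, with Socs3 at 0.58 on the log2 scale), 1 higher (Socs6) and 1 lower (Socs5) for FK506 with curdlan against curdlan, and 3 higher (Socs2, Socs4 and Socs6) and 1 lower (Socs1) for FK506 with curdlan against NT, beside 13.2% to 14.3% of all genes per direction. With the threshold at a ratio of 5 to 4, 3 genes were higher and 1 lower for curdlan against NT, beside 10.4% and 8.57% of all genes, and 2 were higher for FK506 with curdlan against NT, beside 8.95%. The relative log2 ratio of genes below the calling threshold changed sign in 18 cases. Under fold enrichment these were, for curdlan against NT, Socs2 (0.66), Socs4 (0.54) and Cish (-0.04), for FK506 with curdlan against curdlan, Socs1 (-0.17), Socs2 (0.14), Socs3 (-0.31), Socs4 (0.47) and Socs6 (0.71), and for FK506 with curdlan against NT, Socs2 (0.81), Socs4 (1.01) and Socs6 (0.75). The other 7 cases, under the remaining settings, started from ratios within 0.06 of 0. The cause of these differences was not tested. Scaling to tags in peaks gives the same relative ratios by construction. No paired analysis was possible because each condition has 1 library.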
